A study of Mus musculus with 5 samples.

Results

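Beta and non-A non-B intercalated cells are the pendrin-bearing cells of the renal connecting tubule and collecting duct. Intercalated cells handle acid and base next to the salt- and water-transporting principal cells. Alpha intercalated cells pump protons into the urine with a vacuolar proton pump and return bicarbonate to the blood through the anion exchanger AE1 (Slc4a1). Beta cells secrete bicarbonate in exchange for chloride through pendrin (Slc26a4) in the apical membrane. Non-A non-B cells carry pendrin and the proton pump on the same apical side, a difference in protein position that transcript counts do not show, so both kinds are described together here.

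The counts come from Drop-seq, a droplet method that tags each transcript with the barcode of its cell and a unique molecular identifier (UMI), so that copies made by PCR are counted once. All 5 libraries are of untreated kidney from wild-type mice of the strain given as C56BL/6N. The 3 dissected regions, outer medulla, inner medulla and cortex, gave 1 library each, and whole kidney gave 2. The sources used here give no age or sex, and they do not say how many animals went into a library or whether libraries share animals. Kidneys were digested with a cold-active protease and the cells were fixed in methanol.

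A cell, meaning a barcode with at least 200 detected genes, was taken as a beta or non-A non-B intercalated cell when it passed a pump gate and showed beta but no alpha genes. The pump gate asked for at least 3 UMIs, and at least 0.6% of the cell's UMIs, from Atp6v1g3 and Atp6v0d2, the kidney forms of the G and d subunits of the proton pump. The beta condition was at least 1 UMI from Slc26a4, from Slc4a9, the anion exchanger AE4, or from Hmx2, a homeobox transcription factor. Slc4a1 and Aqp6, an aquaporin of alpha cells, had to be at 0. The rule found 110 of 12121 cells (0.908%), called beta-gate cells below. The mirror rule, with at least 1 UMI of Slc4a1 or Aqp6 and none of the 3 beta genes, found 60 alpha-gate cells. A further 12 cells of the pump gate carried both sets and 42 carried neither; they entered neither class. Principal-gate cells (814) had at least 3 UMIs, and at least 0.6% of UMIs, from the water channel genes Aqp2 and Aqp3, and no UMI of the 2 pump genes.

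The 12121 cells had medians of 440 to 517 UMIs per library, and a library's cells held 520663 to 2886013 UMIs in all. Beta-gate cells had a median of 576 UMIs (235 to 2143), alpha-gate cells 483.5 and principal-gate cells 461. Cell barcodes coincided between libraries 6 times, and 0 of the 110 beta-gate cells were among them. No mitochondrial gene was listed, so RNA quality could not be read from that share. No doublet caller was applied, so droplets with more than 1 cell may remain. Levels are given in CPM, the scaled share of a gene in the UMIs summed over the cells of a class in a library, so that all genes of a class together have the same total in every library. Intervals after levels and shares cover counting error only.

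The genes of the rule set the identity of the cells and are given as description. Slc26a4 was detected in 87 of the 110 beta-gate cells with 195 UMIs, Hmx2 in 51 with 111 UMIs and Slc4a9 in 46 with 63 UMIs. A single beta gene accounted for the call in many cells: 34 had Slc26a4 alone, 13 Slc4a9 alone and 6 Hmx2 alone, whereas 17 cells had all 3. The 17 cells with all 3 genes had a median of 1043 UMIs, against 457.5 UMIs in the 34 cells with Slc26a4 alone. Depth therefore moved with the number of beta genes seen, and its part in these combinations was not tested. Among 8951 cells gated as proximal tubule, which should lack these genes, Slc26a4 was seen in 0.257%, Slc4a9 in 0.0559% and Hmx2 in 0.0894%, at a median of 490 UMIs.

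The pump genes took 0.632% to 3.68% of the UMIs of a beta-gate cell, with a median of 1.67%. At the edge of the rule, 31 beta-gate cells rested on 1 UMI of a beta gene, 5 had 3 pump UMIs and 5 were under 0.8%. Outside it, 71 cells had a beta gene, no alpha gene and no pass of the pump gate, and 47 of these had no pump UMI at all. Of the other 24, 11 had at least 0.4% of UMIs from the pump genes.

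Several other known markers stood with the label, and not every gene of the beta and alpha marker lists is given here. Insrr, the insulin receptor-related receptor that senses alkaline pH, had 6 UMIs in beta-gate cells of outer medulla, 0 in inner medulla, 9 in cortex, 3 in whole kidney 1 and 5 in whole kidney 2. It had 0 UMIs in alpha-gate and in principal-gate cells of all 5 libraries and 4 UMIs in all 12011 cells outside the beta gate. Spink8, a serine protease inhibitor gene expressed in intercalated cells, was seen in 70.0% of beta-gate cells, against 0.279% of proximal-gate cells. Alpha-gate cells carried it too, at 683 CPM, against 3583 CPM in beta-gate cells (cortex, outer medulla and whole kidney 1 summed). The alpha marker Kit, a receptor tyrosine kinase, had 0 UMIs in beta-gate cells, against 13 in alpha-gate cells. Adgrf5, an adhesion G protein-coupled receptor, had 4 UMIs in beta-gate cells and 28 in alpha-gate cells, and the transcription factor Dmrt2 had 1 UMI in beta-gate cells and 12 in alpha-gate cells. Slc4a8, a sodium-driven chloride-bicarbonate exchanger reported in beta cells, had 0 UMIs in beta-gate cells and 2 in alpha-gate cells, which goes against the label.

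Beta-gate cells were found in every library, and they were most frequent where cortex was part of the tissue. They made up 0.659% of outer medulla cells (0.377 to 1.07, 16 of 2428), 0.223% of inner medulla cells (0.0270 to 0.802, 2 of 898) and 1.07% of cortex cells (0.741 to 1.51, 33 of 3072). They were 1.28% of whole kidney 1 (0.873 to 1.82, 31 of 2418) and 0.847% of whole kidney 2 (0.564 to 1.22, 28 of 3305). Intervals are exact binomial (Clopper-Pearson, 95%). The outer medulla share was lower, at 0.270%, in cells thinned to 500 UMIs (3 of 1112) and 0.161% in cells with at least 500 genes (1 of 621). Cortex had 1.25% (20 of 1595) in thinned cells and 1.08% (10 of 922) in cells with at least 500 genes. Cortex and outer medulla overlapped, and so did the 2 whole kidney libraries. Each region has 1 library, so regions were not tested against each other.

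Set against alpha-gate cells of the same library, the 3 regions kept that order. Of both classes together, beta-gate cells were 51.6% in outer medulla (33.1 to 69.9, 16 of 31), 9.52% in inner medulla (1.18 to 30.4, 2 of 21) and 75% in cortex (59.7 to 86.8, 33 of 44). They were 73.8% in whole kidney 1 (58.0 to 86.1, 31 of 42) and 87.5% in whole kidney 2 (71.0 to 96.5, 28 of 32). These shares leave out pump-gate cells with neither set of genes. Such cells were 2 of 33 pump-gate cells in outer medulla, 6 of 29 in inner medulla and 10 of 59 in cortex. In whole kidney 1 they were 9 of 53 and in whole kidney 2 15 of 50, and their type was not tested. The beta rule counted 3 genes and the alpha rule 2, and whether both find their cells equally well was not tested. The inner medulla interval lay below those of the other 4 libraries under the rule as given. It overlapped that of outer medulla with the pump gate at 5 UMIs and 1% (1.55 to 38.4 in inner medulla, 34.5 to 76.8 in outer medulla), with at least 2 UMIs of the beta genes, in thinned cells and in cells with at least 500 genes. Asking for 2 UMIs tightened the beta rule only, which can only lower the share in a library. Cells thinned to 500 UMIs, which leaves out shallower cells, gave 27.3% of 11 in outer medulla, 0 of 10 in inner medulla and 80.0% of 25 in cortex. Whole kidney 1 gave 86.4% of 22 and whole kidney 2 gave 89.5% of 19.

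**Figure D1:**
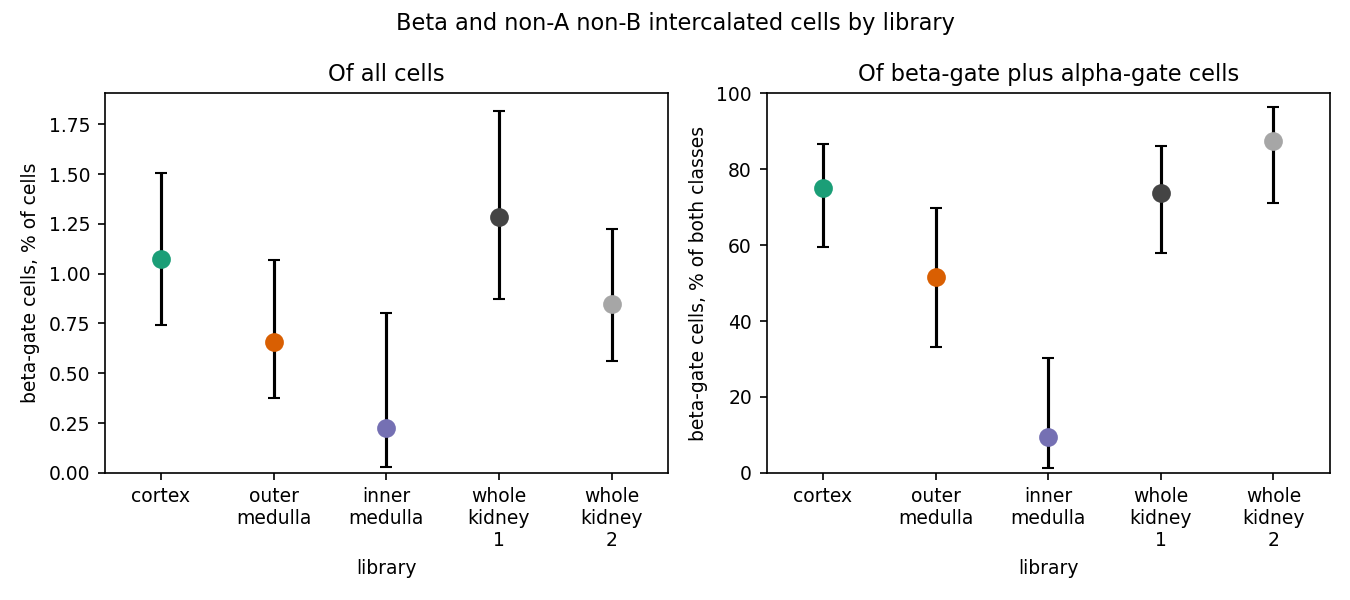
Share of beta-gate cells in each library, as a percentage of all cells (left) and of beta-gate plus alpha-gate cells (right). Points are 1 library each and bars are exact 95% binomial intervals. Inner medulla is lowest in both panels, at 0.223% and 9.52%.

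The vacuolar proton pump, which acidifies by moving protons across membranes, was present in the isoforms known for intercalated cells. Of subunits with 2 gene forms, most UMIs in beta-gate cells fell on one form. Atp6v1c2, which encodes a C subunit, had 153 UMIs in beta-gate cells, and its paralogue Atp6v1c1 had 12. Atp6v1b1, the B subunit of the kidney pump, had 63 UMIs and Atp6v1b2 had 10. For the gate gene Atp6v1g3 the counts were 1060 UMIs, against 21 UMIs for Atp6v1g1, and for the gate gene Atp6v0d2 189 UMIs, against 16 UMIs for Atp6v0d1. Atp6v0a4, the kidney a subunit, had 64 UMIs in beta-gate cells, whereas Atp6v0a1 had 0 and Atp6v0a2 had 1. The lead of Atp6v0a4 was not particular to intercalated cells. It was 77.1% of the UMIs of Atp6v0a4 and Atp6v0a2 in principal-gate cells and 84.5% in all cells outside the beta gate. Atp6v1b1 was 86.3% of both B forms in beta-gate cells, 59.7% in principal-gate cells and 14.3% in all cells outside the beta gate. For Atp6v1c2 these shares of both C forms were 92.7%, 10% and 13.3%. UMIs were read per gene and not per length, so these counts compare tags, not protein. In alpha-gate cells the same forms led for the subunits outside the gate. Atp6v1c2 had 38 UMIs there and Atp6v1c1 2, Atp6v1b1 had 35 and Atp6v1b2 1, and Atp6v0a4 had 32 and Atp6v0a2 0. The gate gene Atp6v1g3 had 362 UMIs in alpha-gate cells and Atp6v1g1 had 5. Both classes passed the pump gate, which asked for Atp6v1g3 and Atp6v0d2. The gate favoured these 2 forms, so nothing is read from their lead in either class.

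**Figure D2:**
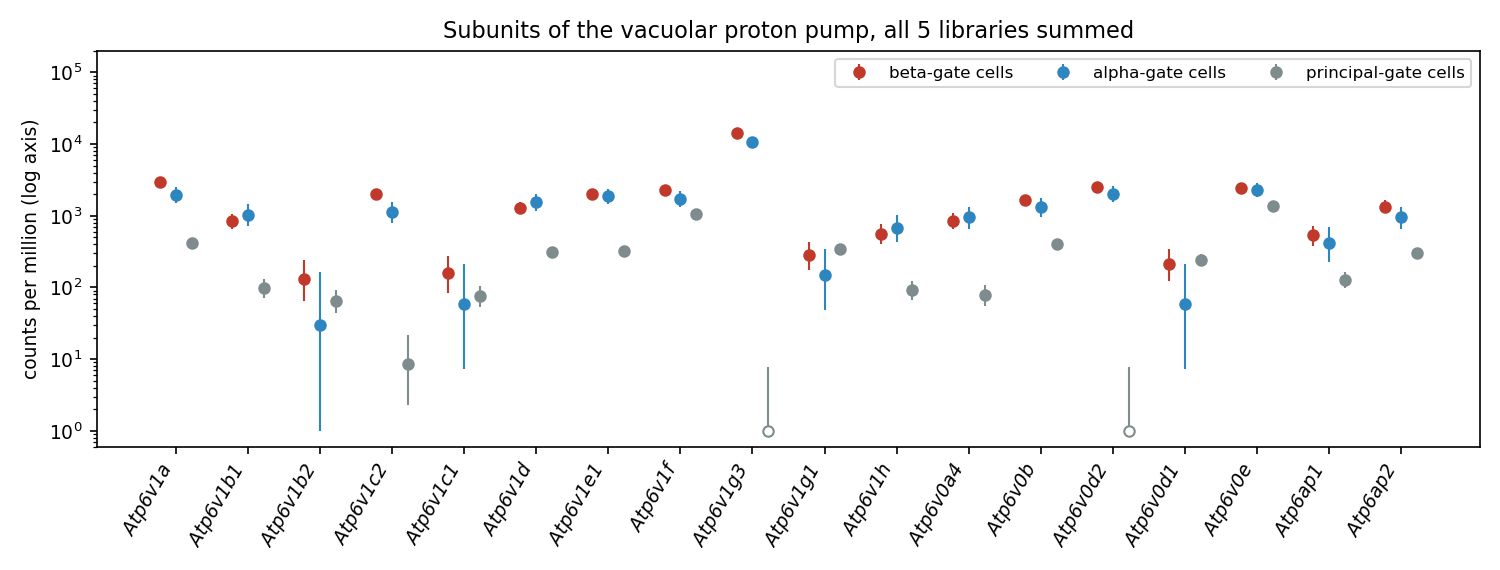
Levels of proton pump subunits in CPM (log axis), summed over all 5 libraries, for beta-gate, alpha-gate and principal-gate cells; bars are exact 95% Poisson intervals, cut at 1, and an open symbol at 1 marks 0 UMIs. Atp6v1g3 and Atp6v0d2 belong to the gates; Atp6v1c2 stands at 2038 CPM in beta-gate cells, 1131 CPM in alpha-gate cells and 8.46 CPM in principal-gate cells.

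Which genes separate beta-gate from alpha-gate cells was tested on UMIs summed per library and class in the 3 libraries with at least 5 cells of both, namely cortex, outer medulla and whole kidney 1. Beta-gate cells had more RNA of 2 secreted proteins, Spp1 and Igfbp5, of the carbonic anhydrase gene Car15, and of Emb, Nudt4, Spink8 and Klk1. They had less of Defb1, Tmsb4x and Serpinb9. Outside the 7 genes of the rule, 403 genes were tested and 10 passed (2.48% of the genes tested), 7 higher (1.74%) and 3 lower (0.744%), by edgeR's quasi-likelihood test at an adjusted p of 0.05 (Benjamini-Hochberg) with library as a block. At an unadjusted p of 0.05, 33 genes were higher and 17 lower. Genes needed at least 30 UMIs over the sums. Beta-gate sums were larger than alpha-gate sums in cortex (22812 and 6351 UMIs) and whole kidney 1 (21810 and 5898), but not in outer medulla (7851 and 8252). Genes high in alpha-gate cells thus reached the minimum less easily, and 0 of the alpha marker genes outside the rule were tested. The filter partly sets the balance of higher and lower genes, and nothing is read from it.

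Car15, a membrane-anchored carbonic anhydrase that interconverts carbon dioxide and bicarbonate outside the cell, stood at 3025 CPM in beta-gate cells of cortex, 4331 CPM in outer medulla and 3301 CPM in whole kidney 1. In alpha-gate cells it stood at 629.8, 121 and 0 CPM in the same libraries, so the classes did not overlap. The difference was 13.7-fold over the 3 libraries (log2 fold change 3.94 ± 0.56 SE, adjusted p = 0.000107, edgeR). Emb, the membrane glycoprotein embigin, had 62 UMIs in beta-gate cells of the 3 libraries and 0 in alpha-gate cells. That is at least 8.07-fold higher when the 0 is set at 3 UMIs over the group (adjusted p = 0.000361, edgeR). In the 2 libraries outside the fit, Emb had 2 UMIs in the 2 beta-gate cells of inner medulla and 18 in those of whole kidney 2, and 0 in alpha-gate cells of both. Igfbp5, an insulin-like growth factor binding protein, had 58 UMIs in beta-gate cells and 0 in alpha-gate cells, at least 7.55-fold higher (adjusted p = 0.000979, edgeR). Free RNA was present for Igfbp5, which had 138 to 371 CPM in barcodes under 100 genes, and 0 UMIs of it were counted in any of the 60 alpha-gate cells.

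Nudt4, a hydrolase of diphosphoinositol polyphosphates, had 2323, 2165 and 2659 CPM in beta-gate cells of cortex, outer medulla and whole kidney 1, against 157.5, 242 and 0 CPM in alpha-gate cells. The ratio was 16.7 (5.58 to 81.9) and rests on 3 UMIs in alpha-gate cells (adjusted p = 0.000107, edgeR). Spink8 had 3069, 2930 and 4356 CPM in beta-gate cells, against 472, 848 and 678 CPM in alpha-gate cells, with no overlap (5.25-fold, adjusted p = 0.000400, edgeR). Spp1, the secreted phosphoprotein osteopontin, had 3901, 4713 and 5594 CPM in beta-gate cells and 1260, 121 and 2204 CPM in alpha-gate cells (4.40-fold, adjusted p = 0.00412, edgeR). These 3 genes were thus higher in beta-gate cells in each of the 3 libraries.

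Defb1, the antimicrobial peptide beta-defensin 1, stood on the alpha side. It had 1271, 0 and 596 CPM in beta-gate cells of cortex, outer medulla and whole kidney 1, against 2362, 5817 and 6104 CPM in alpha-gate cells (6.03-fold lower, adjusted p = 0.00297, edgeR). Barcodes under 100 genes held Defb1 at 1173, 884 and 1218 CPM in these libraries, and the part of free RNA in the beta-gate level was not tested. Tmsb4x, the actin-binding thymosin beta 4, had 87.7, 127 and 229 CPM in beta-gate cells, against 315, 2545 and 848 CPM in alpha-gate cells (8.96-fold lower, adjusted p = 0.0155, edgeR). That fold is a ratio over summed libraries, and the log2 fold change fitted with library as a block was -2.47. Serpinb9, an inhibitor of granzyme B, had 526, 764 and 413 CPM in beta-gate cells, against 945, 2545 and 2204 CPM in alpha-gate cells (3.79-fold lower, adjusted p = 0.0335, edgeR). All 3 were lower in beta-gate cells in each library, with cortex the closest.

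**Figure D3:**
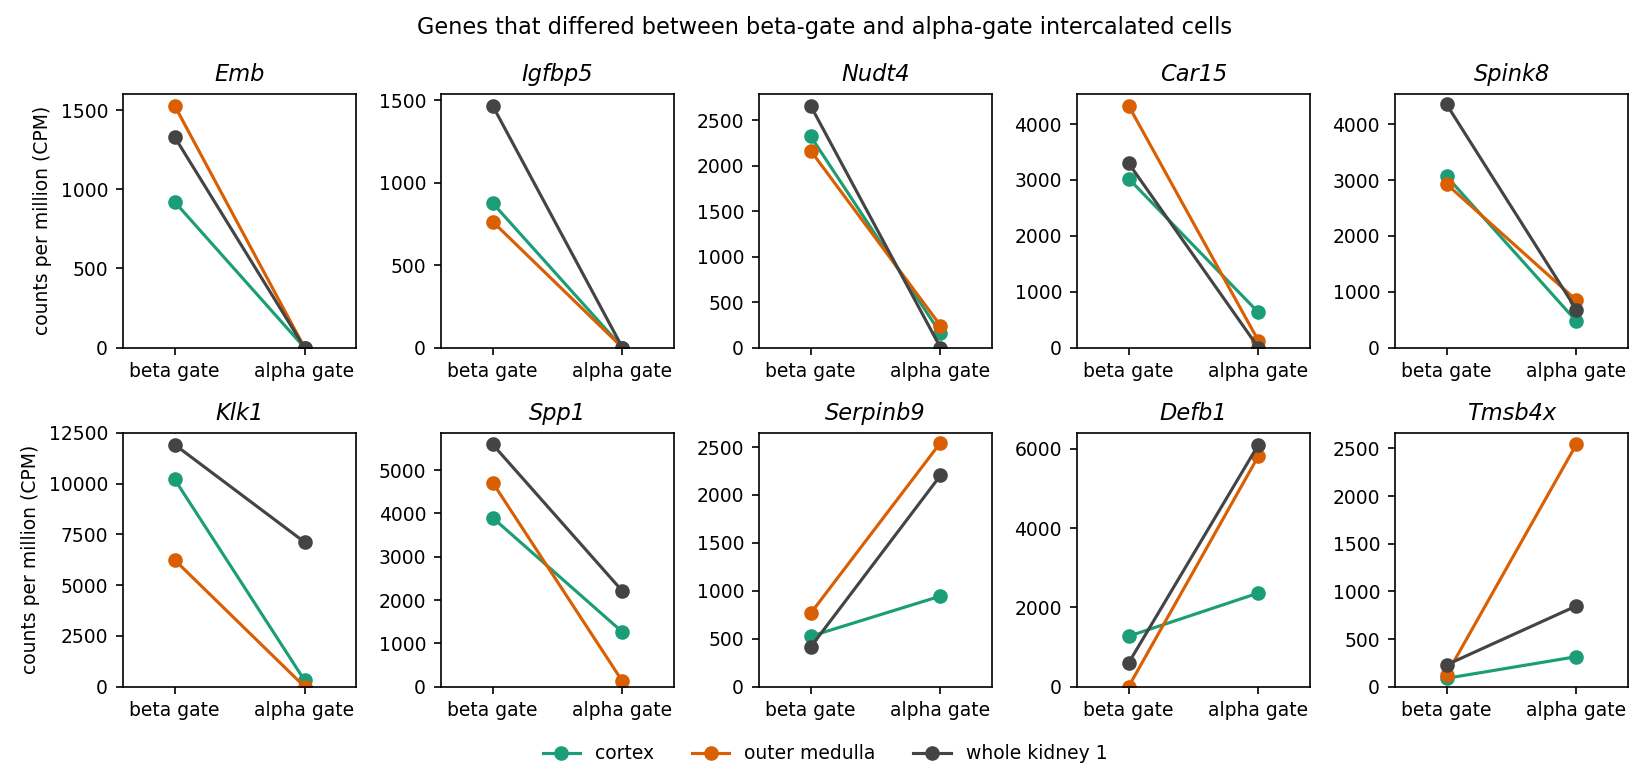
Levels of the 10 genes that passed the test, in CPM, in beta-gate (left) and alpha-gate (right) cells of the 3 libraries of the fit; each line joins the 2 classes of 1 library. Emb and Igfbp5 are at 0 in all 3 alpha-gate sums, and for Klk1 the alpha-gate sum of whole kidney 1 (7121 CPM) lies above the beta-gate sum of outer medulla (6241 CPM).

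No pump gene outside the rule passed the test between the 2 classes. Of 12 tested, 0 passed in edgeR or DESeq2 and 2 were higher at an unadjusted p of 0.05 in edgeR. Their fold changes were positive in 10 and negative in 2, and their median log2 fold change was 0.32 against 0.06 over all genes tested. Atp6v1c2 came nearest, with 1791 CPM in beta-gate and 683 CPM in alpha-gate cells (adjusted p = 0.0826, edgeR). Of 28 nuclear genes of oxidative phosphorylation 0 passed in either tool and 2 were lower at an unadjusted p of 0.05 in edgeR, with a median log2 fold change of -0.22. Foxi1, the forkhead factor required for intercalated cells, had 438 CPM in beta-gate and 634 CPM in alpha-gate cells (adjusted p = 0.844, edgeR), and the ammonium transporter gene Rhbg 381 CPM in beta-gate and 1122 CPM in alpha-gate cells (adjusted p = 0.218, edgeR). Of 11 genes shared by intercalated cells 0 passed in either tool, and at an unadjusted p of 0.05 in edgeR 1 was higher and 1 lower. An adjusted p that misses the threshold does not show that the classes have the same level.

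The calls against alpha-gate cells rested on the cortex and outer medulla libraries. Without the cortex library 0 of 214 genes passed in edgeR, with 20 at an unadjusted p of 0.05, and without outer medulla 0 of 304 passed, with 37. Without whole kidney 1, 7 genes passed, all of them among the 10. Each of the 10 that could still be tested kept its direction in these 3 fits, in which 1 residual degree of freedom remained. With DESeq2, 6 of the 10 passed, and Klk1, Defb1, Tmsb4x and Serpinb9 did not. Tmsb4x and Serpinb9 also failed without the filter on low counts, and Serpinb9 without whole kidney 1.

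Against principal-gate cells, the neighbours in the same tubule, beta-gate cells had more RNA of the proton pump, of carbonic anhydrases and of some mitochondrial genes, and less of the genes of sodium and water transport. The test used 4 libraries (cortex, outer medulla, whole kidney 1 and whole kidney 2). Of 1836 genes outside both gates, 289 passed (15.7%), 121 higher (6.59%) and 168 lower (9.15%), by edgeR's quasi-likelihood test at an adjusted p of 0.05. DESeq2 passed 153 genes, 62 higher and 91 lower, all among the 289. Without whole kidney 2, 177 genes passed, 72 higher and 105 lower.

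Of 16 pump genes tested outside the gates, 11 were higher and 0 lower, with a median log2 fold change of 1.80 against -0.12 over all genes tested. Atp6v1c2 had 1973, 1274, 1788 and 2616 CPM in beta-gate cells of cortex, outer medulla, whole kidney 1 and whole kidney 2, against 21.3, 0, 0 and 0 CPM in principal-gate cells, where it had 1 UMI in all. Atp6v0a4 had 614, 1274, 1055 and 780 CPM in beta-gate cells, against 256, 144, 171 and 154 CPM in principal-gate cells (4.86-fold, adjusted p = 3.59e-06, edgeR). Atp6v1a, the catalytic A subunit, was 4.39-fold higher and Atp6v1e1, of the stalk, 4.8-fold. The 5 that did not pass were Atp6v1f, Atp6v1b2, Atp6v1c1, Atp6v1g1 and Atp6v0d1.

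Of 11 intercalated cell genes tested, 7 were higher and 1 lower. Foxi1 had 37 UMIs in beta-gate cells of the 4 libraries and 0 in principal-gate cells, at least 32.8-fold higher (adjusted p = 3.39e-08, edgeR). Hepacam2, a cell adhesion gene, had 52 UMIs in beta-gate cells and 1 in principal-gate cells. Car2, the cytosolic carbonic anhydrase, was 3.20-fold and Tmem213 2.34-fold higher. Rhcg, an ammonia transporter gene of both cell kinds, was 2.16-fold lower (364 CPM in beta-gate and 786 CPM in principal-gate cells, adjusted p = 0.00849, edgeR). Of 6 anion and bicarbonate genes tested outside the rule, the 3 carbonic anhydrases passed, all higher. Car12, a membrane carbonic anhydrase, had 921, 1401, 2155 and 1239 CPM in beta-gate cells, against 85.4, 13.1, 28.6 and 25.7 CPM in principal-gate cells (40.2-fold, adjusted p = 2.83e-13, edgeR), and Car15 was 3.09-fold higher.

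Pam, the enzyme that amidates peptide hormones, was among the clearest of the other genes. It had 2586, 4331, 3485 and 2708 CPM in beta-gate cells, against 42.7, 13.1, 0 and 25.7 CPM in principal-gate cells (151-fold, log2 fold change 7.06 ± 0.37 SE, adjusted p = 1.26e-20, edgeR). Ociad2, a gene of endosomes and mitochondria, had 107 UMIs in beta-gate cells and 0 in principal-gate cells, at least 94.7-fold higher. Serpinb6b, a serine protease inhibitor, had 33 UMIs in beta-gate cells and 0 in principal-gate cells, at least 29.2-fold higher. Eps8, an actin regulator, had 67 UMIs in beta-gate and 2 in principal-gate cells, and Igfbp5 86 UMIs in beta-gate and 4 in principal-gate cells. Syn2, a synapsin gene, had 29 UMIs in beta-gate and 2 in principal-gate cells, and Fam13a 35 UMIs in beta-gate and 2 in principal-gate cells. Each of these genes was higher in all 4 libraries.

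Among transcription factors, 2 of 9 tested were higher and 4 lower, while 6.59% of all genes tested were higher and 9.15% lower. Foxi1 and Foxp1, both forkhead factors, were higher, Foxp1 by 15.5-fold. Gata2, Gata3, Hes1, a target of Notch signalling, and Tfap2b were lower, with Tfap2b at 0 UMIs in beta-gate cells and 40 in principal-gate cells. Of 28 genes of oxidative phosphorylation 9 were higher and 0 lower, beside the same shares over all genes tested. The 9 ran from 1.60-fold for Ndufa4 to 2.72-fold for Atp5g1. Ndufa4 (adjusted p = 0.049, edgeR) and Cox7a2 (adjusted p = 0.0447, edgeR) lay close to the threshold. Of 9 glycolysis genes 0 passed in edgeR or DESeq2, and 0 at an unadjusted p of 0.05 in edgeR.

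Principal cell genes were lower, 9 of 10 tested outside the gates. Fxyd4, a regulator of the sodium pump, had 0 UMIs in beta-gate cells of the 4 libraries and 1592 in principal-gate cells, at least 200-fold lower. Also at 0 UMIs in beta-gate cells were Apela, a peptide ligand with 425 UMIs in principal-gate cells, Avpr2, the vasopressin V2 receptor with 132, and Scnn1g, the gamma subunit of the epithelial sodium channel, with 86. Hsd11b2, which protects the mineralocorticoid receptor from cortisol-like hormones, had 162 CPM in beta-gate cells and 5934 CPM in principal-gate cells (36.7-fold lower, adjusted p = 1.86e-16, edgeR). Of 6 receptor and signalling genes tested, 5 were lower, the others being Avpr2, Ptger1, Stk39 and Sgk1, an aldosterone-induced kinase. Cdo1, Kcne1, Npnt, Cav1, Tmem45b, Rnf186 and Ctnna1 were each at 0 UMIs in beta-gate cells, against 82 to 174 UMIs in principal-gate cells.

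**Figure D4:**
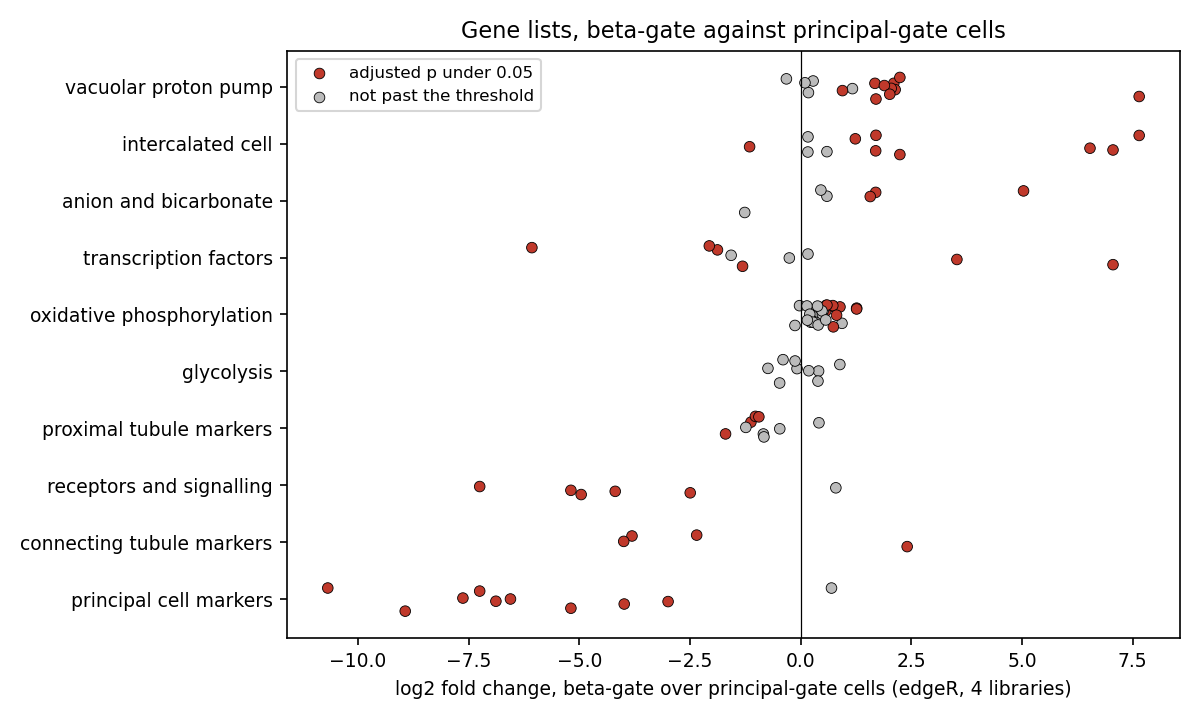
Log2 fold changes of the genes of 10 lists, beta-gate over principal-gate cells, fitted over 4 libraries; 1 point is 1 gene outside both gates and red points passed an adjusted p of 0.05. Proton pump genes lie to the right (11 of 16 passed) and principal cell markers to the left (9 of 10 passed).

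Receptors too scarce for the test were read as counts over all 5 libraries. Oxgr1, the receptor for 2-oxoglutarate, had 20 UMIs in 17 beta-gate cells, 7 UMIs in alpha-gate cells and 2 in principal-gate cells. Avpr1a, the vasopressin V1a receptor, had 18 UMIs in 17 beta-gate cells, 9 in alpha-gate cells and 0 in principal-gate cells. In CPM, Avpr1a was at 240 (142 to 379) in beta-gate and 268 (122 to 508) in alpha-gate cells, and these intervals overlap. Jag1, a Notch ligand, had 18 UMIs in beta-gate cells, 4 in alpha-gate cells and 3 in principal-gate cells. The classes held 75071 UMIs (beta-gate), 33607 (alpha-gate) and 472653 (principal-gate) in all. Raw counts of Oxgr1 and Jag1 therefore do not compare levels between the classes.

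The 2 aquaporins of principal cells parted in beta-gate cells, a pattern chosen after the values were seen. Aqp3, the water and glycerol channel of the basolateral membrane, had 4 UMIs in beta-gate cells of outer medulla, 0 in inner medulla, 14 in cortex, 18 in whole kidney 1 and 10 in whole kidney 2. Aqp2, the vasopressin-regulated channel, had 2 UMIs in beta-gate cells of cortex and 0 in the other 4 libraries. Aqp3 was thus 95.8% of the 48 UMIs of both genes (85.8 to 99.5). In alpha-gate cells Aqp3 was 61.9% of 21 UMIs (38.4 to 81.9; 13 of Aqp3 and 8 of Aqp2). Of these, 8 of Aqp3 and 7 of Aqp2 were in inner medulla, so that the other 4 libraries held 5 UMIs of Aqp3 and 1 of Aqp2. In principal-gate cells, which were chosen by the sum of both genes, Aqp3 was 14.3% of the UMIs (22.9% to 26.9% in the 4 libraries outside inner medulla), and in barcodes under 100 genes, which hold free RNA, it was 22.1% (20.1 to 24.1), or 23.2% to 40.6% in the 4 libraries outside inner medulla. Aqp3 was seen in 31 of the 110 beta-gate cells and Aqp2 in 2. Its level, 686 CPM in beta-gate and 244 CPM in alpha-gate cells, did not pass the test (adjusted p = 0.339, edgeR).

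Against all other cells the beta-gate cells were described without a test, since marker genes had chosen them. Of 422 genes with at least 30 UMIs in beta-gate cells outside the rule, 106 (25.1%) were at least 2-fold higher, and higher in all 4 libraries with at least 5 beta-gate cells, and 22 (5.21%) were at least 2-fold lower in the same way. Genes low in beta-gate cells could not reach 30 UMIs there, so the filter partly sets this balance and nothing is read from it. The rule did not use these genes, although several, such as Foxi1 and Hepacam2, are genes of all intercalated cells. The top of the order was Atp6v1c2 at 2038 CPM in beta-gate cells and 17.2 CPM in the others. Hepacam2 followed, at 706 CPM in beta-gate cells and 6.76 CPM in the others, and then Foxi1, at 506 CPM in beta-gate cells and 6.12 CPM in the others. Next came Serpinb6b (71.8-fold), Rcan2, a calcineurin regulator (70.5-fold), Spink8 (68.5-fold), Emb (64.7-fold), Car15 (54.7-fold) and Rgs2, a regulator of G protein signalling (37.0-fold). Ociad2, Atp6v1b1, Ckmt1, a mitochondrial creatine kinase, Serpinb9, Pam, Foxp1, Rhbg, Car12, Fam13a, Tmem213 and Gadd45a, a growth arrest gene, completed the 20 highest, down to 13.3-fold. Spink8, Emb and Car15 had both a high rank here and a difference from alpha-gate cells.

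Foxi1 is known to switch on pump genes, and forkhead factors bind a core of TGTTTA, read as TAAACA on the other strand. The promoters of Atp6v1b1 and Car12, genes that were higher than in principal-gate cells, and of Slc26a4, the defining gene, are shown to let the core be seen or missed. They are RefSeq promoter windows of build GRCm38.p6, 250 bases before to 50 after the start, at chr6:83742767-83743066 (plus strand) for Atp6v1b1, chr9:66713436-66713735 (plus strand) for Car12 and chr12:31559935-31560234 (minus strand) for Slc26a4, with the core in capitals.
Atp6v1b1: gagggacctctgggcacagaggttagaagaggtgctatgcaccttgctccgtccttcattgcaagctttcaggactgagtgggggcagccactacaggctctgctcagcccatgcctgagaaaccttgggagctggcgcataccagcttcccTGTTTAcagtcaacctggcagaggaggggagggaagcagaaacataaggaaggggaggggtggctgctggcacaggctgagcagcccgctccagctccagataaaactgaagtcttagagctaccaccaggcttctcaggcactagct
Car12: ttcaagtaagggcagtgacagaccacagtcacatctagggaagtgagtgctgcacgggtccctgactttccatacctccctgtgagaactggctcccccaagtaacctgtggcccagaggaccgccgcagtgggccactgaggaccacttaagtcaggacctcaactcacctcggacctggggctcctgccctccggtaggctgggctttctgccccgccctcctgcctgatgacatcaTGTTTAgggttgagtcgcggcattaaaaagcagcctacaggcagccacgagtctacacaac
Slc26a4: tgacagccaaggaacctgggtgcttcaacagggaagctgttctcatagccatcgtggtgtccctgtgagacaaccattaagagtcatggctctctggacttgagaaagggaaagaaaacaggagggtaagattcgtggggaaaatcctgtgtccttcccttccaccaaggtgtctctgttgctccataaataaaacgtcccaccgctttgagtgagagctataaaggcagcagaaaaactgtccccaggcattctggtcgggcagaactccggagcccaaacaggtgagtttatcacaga
The core lay 98 bases before the start in Atp6v1b1 and 11 bases before it in Car12, and these letters were not in the Slc26a4 window. Over the 20 genes above and the 5 positive genes of the rule, 21 had an entry, and 8 of their 28 promoters (28.6%), from 6 genes, held the core on either strand. All 3 of the Foxp1 promoters are among the 8, and the single promoters of the pump genes Atp6v1c2 and Atp6v1g3 held 0. Of all 32851 promoters 13.4% held it. A match is a description of letters and no binding was measured.

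Klk1, tissue kallikrein, a protease secreted by the connecting tubule, split the beta-gate cells. Its level in beta-gate cells was 6241 CPM in outer medulla, 34611 CPM in the 2 cells of inner medulla, 10214 CPM in cortex, 11921 CPM in whole kidney 1 and 14732 CPM in whole kidney 2. But 25 of the 110 cells had at least 5 Klk1 UMIs and held 835 of the 891 UMIs, and the other 85 cells held 56. The 25 cells were 2 each in outer and inner medulla, 9 in cortex, 4 in whole kidney 1 and 8 in whole kidney 2. In whole kidney 1, 177 of the 260 UMIs were in 1 cell, and 83 remain without it. The limit of 5 UMIs was chosen after the values were seen.

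In summed counts the 25 cells carried Klk1 at 48614 CPM. Calbindin-gate cells were taken as cells outside the pump gate with at least 5 UMIs of Calb1 and S100g (630 cells, 45619 CPM). This gate did not leave out distal convoluted tubule or principal cells, so the class may be mixed. The 25 cells were picked for high Klk1, so nothing is read from how near the 2 levels lie. Calb1 and S100g encode the calcium-binding proteins calbindin-D28k and calbindin-D9k, and are listed here as connecting tubule genes. Those 2 genes together stood at 1805 CPM in the 25 beta-gate cells and at 37156 CPM in the calbindin-gate cells. Klk1 per UMI of Calb1 and S100g was 26.9 in the 25 cells and 1.81 in the other 85 beta-gate cells. It was 1.23 in calbindin-gate cells and 1.04 in barcodes under 100 genes. The 25 cells were picked by Klk1 and the calbindin-gate cells by Calb1 and S100g. This choice sets the direction of the difference between 26.9 and 1.23. The limit on Klk1 also raises 26.9 over 1.81 and 1.04. Nothing is read from these differences. By library the ratio in the 25 cells was 10.9 in cortex (219 and 20 UMIs) and 45.0 in outer medulla (45 and 1). It was 57.5 in whole kidney 1 (230 and 4) and 52.2 in whole kidney 2 (313 and 6). In calbindin-gate cells of the same libraries it was 1.32, 1.42, 1.27 and 1.04. The 2 cells of inner medulla had 28 UMIs of Klk1 and 0 of the other 2 genes. The other 85 beta-gate cells stood at 967 CPM of Klk1, against 4683 CPM in barcodes under 100 genes.

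**Figure D5:**
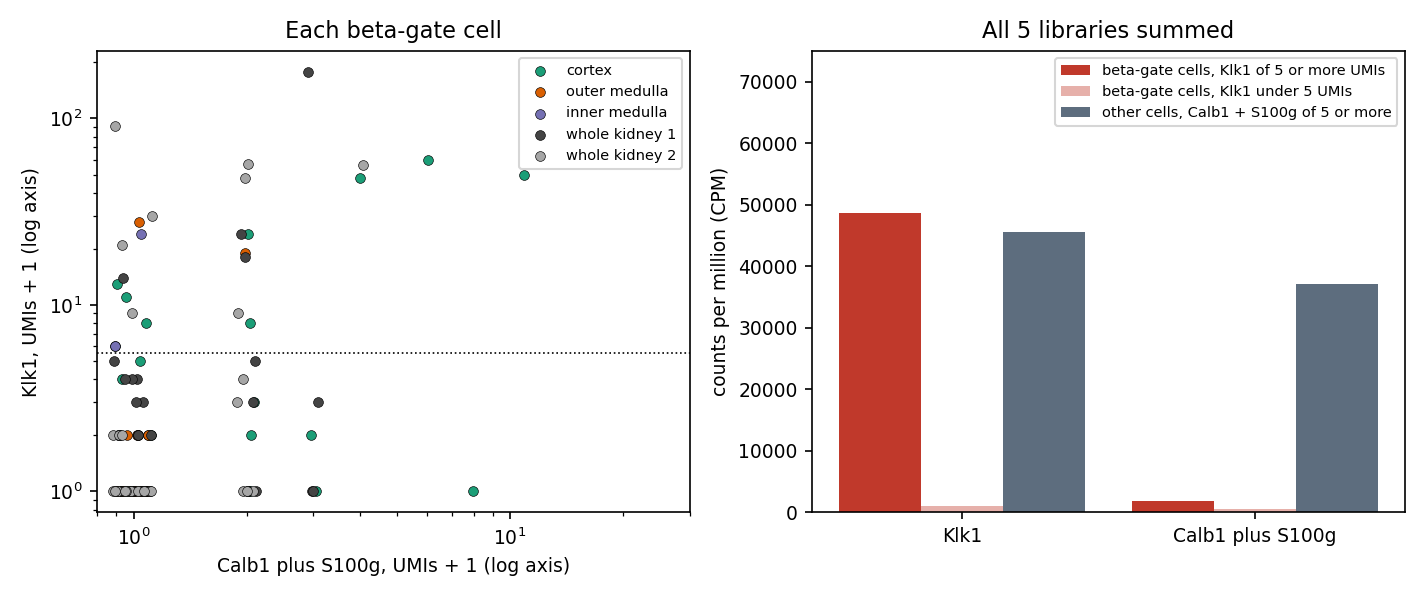
Left, Klk1 against Calb1 plus S100g in each of the 110 beta-gate cells, in UMIs + 1 on log axes, with small horizontal jitter and a dotted line between under 5 and 5 or more Klk1 UMIs. Right, levels in CPM summed over 5 libraries: the 25 Klk1-rich beta-gate cells, picked by Klk1, have 48614 CPM of Klk1 and 1805 CPM of Calb1 plus S100g. Calbindin-gate cells, picked by Calb1 and S100g, have 45619 and 37156 CPM.

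Against alpha-gate cells Klk1 passed the test (4.81-fold in summed UMIs, fitted log2 fold change 2.83, adjusted p = 0.00891, edgeR) although the classes overlapped. Alpha-gate cells had 2 UMIs in cortex (315 CPM), 0 in outer medulla and 42 in whole kidney 1 (7121 CPM), and 37 of the 42 were in 1 cell. Over all alternatives its adjusted p ran between 2.56e-14 (edgeR, without whole kidney 1) and 0.638 (edgeR, without cortex). The call was lost with DESeq2 (adjusted p = 0.272), without the library block (adjusted p = 0.0588, edgeR), with a minimum of 100 UMIs, and without cortex or outer medulla. Klk1 was the 1 of 4 connecting tubule genes tested that was higher against principal-gate cells (3.74-fold, adjusted p = 1.08e-05, edgeR). The other 3, Calb1, S100g and Slc8a1, a sodium-calcium exchanger, were lower: Calb1 was 11-fold, S100g 11.4-fold and Slc8a1 4.08-fold lower in beta-gate cells.

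Other genes had other levels in the Klk1-rich cells than in the rest of the beta-gate cells. These values are described only, since the split was made on the same cells. Spink8 was at 1223 CPM in the 25 Klk1-rich cells and 4266 CPM in the other 85, a ratio of 0.29. It was lower in the Klk1-rich cells in each of the 4 larger libraries, at 0 CPM against 3258 CPM in outer medulla, 2238 against 3324 CPM in cortex, 577 against 5069 CPM in whole kidney 1 and 741 against 4853 CPM in whole kidney 2. The genes of the rule did not all keep 1 level. Hmx2 was at 815 CPM in Klk1-rich cells and 1675 CPM in the rest, Slc26a4 at 2736 CPM in Klk1-rich cells and 2556 CPM in the rest. Of the 2 pump genes, Atp6v1g3 was at 14206 CPM in Klk1-rich cells and 14094 CPM in the rest, and Atp6v0d2 at 1747 CPM in Klk1-rich cells and 2746 CPM in the rest (ratio 0.636, 0.416 to 0.944). Foxi1, outside the rule, had 3 UMIs in the 25 cells and 35 in the 85 (ratio 0.289, 0.0569 to 0.917). Klk1b5, another kallikrein gene, had 19 UMIs in the 25 cells and 5 in the 85, and since its sequence is close to that of Klk1, reads may have been shared. Median depth was 596 UMIs in the Klk1-rich cells and 574 UMIs in the rest.

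Another split followed Hmx2, which the rule used only as 1 of 3 alternatives; it too was chosen after the values were seen and is described without a test. In the 51 cells with an Hmx2 UMI, Car15 was at 2477 CPM, against 5067 CPM in the 59 cells without. It was lower with Hmx2 in each of the 4 larger libraries, at 3546 against 5247 CPM in outer medulla, 1708 against 3941 CPM in cortex, 2307 against 5799 CPM in whole kidney 1 and 3189 against 5908 CPM in whole kidney 2. Spink8 ran the other way, at 4567 CPM with and 2506 CPM without Hmx2, and it was higher with Hmx2 in the same 4 libraries. Defb1 had 9 UMIs with and 40 without Hmx2. Mt1, a metallothionein gene, had 58 UMIs with and 13 without Hmx2. Cells with an Hmx2 UMI were deeper, with a median of 646 UMIs against 490 (in outer medulla 368.5 against 442), and the part of depth in these differences was not tested. Genes of other tubule cells moved with the split as well, in sums over all libraries. Klk1 was at 7173 CPM with and 16880 CPM without Hmx2, S100g at 387 CPM with and 936 CPM without, and the proximal tubule gene Gpx3 at 8076 CPM with and 13217 CPM without (ratio 0.611, 0.528 to 0.706). In whole kidney 1 Klk1 ran the other way, at 13011 CPM with and 9182 CPM without Hmx2, as did S100g with 11 UMIs with and 2 without, and Gpx3 did so in outer medulla and inner medulla. Their part in the differences was not tested. Emb was at 1135 CPM with and 1046 CPM without Hmx2.

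Between outer medulla and cortex, beta-gate cells were compared without a test, with the 2 whole kidney libraries to show how far like libraries lay apart. Of 138 genes with at least 30 UMIs over both sums outside the rule, 3 were at least 2-fold higher in outer medulla (2.17%) and 20 at least 2-fold lower (14.5%). For whole kidney 2 over whole kidney 1 the counts were 2 (0.962%) and 3 (1.44%) of 208 genes. The outer medulla sum held 7851 UMIs, the cortex sum 22812 UMIs, whole kidney 2 21789 UMIs and whole kidney 1 21810 UMIs, so the smaller sum widens the counting error on the first comparison. The minimum of 30 UMIs over both sums was also reached mainly through the larger cortex sum. It therefore partly sets the balance of higher and lower genes, and nothing is read from that balance. Of 23 nuclear genes of oxidative phosphorylation in this comparison, 4 were at least 2-fold lower in outer medulla (17.4%), a share near that of all genes, and 0 at least 2-fold higher. The 4 were Atp5j2, Cox5b, Ndufb9 and Uqcr10; Uqcr10, of complex III, had 7 UMIs in outer medulla and 59 in cortex (892 and 2586 CPM). Atp5b, at a ratio of 1.33, and Sdhb, at 1.18, lay on the other side of 1. The proximal tubule genes Kap (ratio 0.523, 0.298 to 0.870) and Gpx3 (0.670, 0.510 to 0.870) were lower in outer medulla too, and the part of free RNA in these ratios was not tested. Gpx1, a glutathione peroxidase gene, had 4 UMIs in outer medulla and 43 in cortex, and the pump gene Atp6v1f had 9 UMIs in outer medulla and 69 in cortex. The 3 higher genes were App, Tmem59 and the pump gene Atp6v1d, with 14 UMIs in outer medulla and 20 in cortex (1783 and 877 CPM). Between whole kidney 2 and whole kidney 1, the ribosomal RNA precursor Rn45s was at 4635 CPM in whole kidney 2 and 11325 CPM in whole kidney 1, and Gadd45a at 1239 CPM in whole kidney 2 and 413 CPM in whole kidney 1.

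Genes of other cell types were read in these sums as RNA that may be foreign to the cells. What part of it is foreign was not tested. The 12 proximal tubule markers made up 1.62% of UMIs in beta-gate cells, 1.13% in alpha-gate cells and 8.57% in barcodes under 100 genes, and 1 of the 12 was at 0 in beta-gate cells. By library they were 0.865% to 2.07% in beta-gate cells and 0.475% to 2.16% in alpha-gate cells. The 5 podocyte markers were at 0 UMIs in beta-gate cells, the 8 endothelial markers had 2 UMIs, the 8 immune markers 3 and the 6 stromal markers 7. The 13 principal cell markers made up 0.123% of UMIs in beta-gate cells and 0.180% in barcodes under 100 genes, with Aqp3 as 46 of the 92 UMIs. Gpx3, a secreted peroxidase of the proximal tubule, was at 10563 CPM in beta-gate cells over all libraries, and at 33149 to 40986 CPM in barcodes under 100 genes of the 4 libraries outside inner medulla. The part of free RNA in its level was not tested.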

How the data were processed

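Drop-seq libraries were made from cold-protease-digested, methanol-fixed kidney cells and sequenced on a NextSeq 500, per the labels' protocols. The deposited tables hold counts of UMIs per gene and barcode, made by the authors with build mm9, per the submitters' processing notes, which also name Seurat 2.3.1. No source used here names the aligner. The members and gene lists were chosen with earlier results of these data known.

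UMIs were summed per library and class, with levels as CPM. Fold values not given as log2 are ratios of CPM over the summed libraries, without the library block or TMM. The fitted log2 fold changes, which ranked the genes named from the tests, use both and can differ from these ratios. Both classes come from the same library, so library was the block, and classes needed at least 5 cells in a library. Genes with at least 30 UMIs over the sums were tested with edgeR 4.0.16 (quasi-likelihood, TMM, Benjamini-Hochberg 0.05) in R 4.3.3; DESeq2 1.42.0 was an alternative. The gate genes were left out of the calls. The procedure was tested on simulated data. With library as the block, p-values set a class difference against how far that difference varies from library to library. Labels do not show separate animals, so this variation may be technical and does not stand for a spread between animals.

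Named genes were the 12 each way with the largest fold change among those called and changed alike in every library, listed genes with at least 30 UMIs, and the 20 genes with the highest ratio to all other cells; others were named after their values were seen, and 1 gene of the rule is not reported here. Genes read only as counts, such as Insrr, come from the lists. A class at 0 was set at 3 UMIs for a bound. Intervals are 95% exact binomial or Poisson (conditional for ratios) and cover counting error only. Barcodes under 100 genes stood for free RNA. No doublet caller was applied.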

Additional observations from a re-analysis of the deposited data

Results flagged for a closer look

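Barcodes with at least 100 but fewer than 200 detected genes lie outside the cells of the report, and 10 of 13475 of them (0.0742%, 0.0356 to 0.136, exact binomial) met the pump, beta and alpha conditions. They were 1 in outer medulla, 0 in inner medulla and 3 each in cortex, whole kidney 1 and whole kidney 2. The share among cells was 0.908%, and what these barcodes hold was not tested.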

How the results depend on the processing

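No called gene changed direction in any alternative. Against alpha-gate cells, where 10 genes passed, DESeq2 passed 6, a minimum of 100 UMIs 3, and the fit without the 10% of cells with the highest load of other cell types' markers 20. Requiring at least 2 UMIs of the beta genes, an alternative chosen after seeing the data, gave 17. Leaving out 1 library gave 0 to 7 genes. Without the library block 10 genes passed, 9 of them the same, and Klk1 was lost. Against principal-gate cells, where 289 passed, DESeq2 passed 153, a minimum of 100 UMIs 159 and cells with at least 500 genes 88. Leaving out 1 library gave 177 to 222, and 301 passed without the block. The 24 genes chosen by rank against principal-gate cells kept their call wherever they could be tested. Beta-gate cells were 0.743% of cells with the pump gate at 5 UMIs and 1%, and 0.652% with at least 2 UMIs of the beta genes. Of beta-gate plus alpha-gate cells they were 56.8% with at least 2 UMIs and 72.9% among cells with at least 500 genes. The stricter pump gate and the 2-UMI condition can only lower the share among cells. The 2-UMI condition left the alpha rule as it was, so it can only lower the share of both classes too. Nothing is read from these falls. The cause of the shift among cells with at least 500 genes was not tested. The alpha fit with at least 500 genes had too few cells and was not possible. Genes under 30 UMIs could not be tested, and inner medulla, with 2 beta-gate cells, entered no test.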
